A study of Mus musculus with 36 samples.

Results

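Kap, Prlr and 5 further genes of the mouse kidney tubule whose transcripts are known to respond to sex hormones or to serve neighbouring steps of metabolism were described: Kap, Prlr, Cndp2, Cyp7b1, Acsm2, Acsm3 and Gusb. They were chosen by symbol, and each had a single row of its own, so they are 7 of the 24883 rows of the deposited tables. The study fed male wild-type C57BL/6J mice from 6 weeks of age, ad libitum, with a high-fat diet (HFD) or with normal chow (NC), with 12 h of light and 12 h of dark a day, and kidneys are labelled as harvested at 16 weeks. Hours after lights on are given as Zeitgeber time (ZT). RNA of whole kidney was sequenced at ZT0, 4, 8, 12, 16 and 20 from 3 HFD mice and 3 NC mice at each time, 36 libraries in 12 groups. Both diets share the strain, the sex and the light schedule, the composition of the high-fat diet is not given in the sources used here, and each group is 1 time point of different mice.

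Androgens act in the mouse kidney mainly on the proximal tubule, where they raise a set of abundant transcripts in males, and where other transcripts are kept higher in females. Kap encodes the kidney androgen-regulated protein, Gusb the lysosomal enzyme beta-glucuronidase, a classical androgen-induced enzyme of mouse kidney, and Cyp7b1 a hydroxylase of oxysterols and steroids. Prlr encodes the receptor of prolactin, which signals through the kinase JAK2 and the transcription factor STAT5. Cndp2 encodes a cytosolic dipeptidase, and Acsm2 and Acsm3 encode mitochondrial enzymes that activate medium-chain fatty acids.

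Prlr was higher and Cndp2 lower under the high-fat diet over the day, with smaller differences in Gusb (higher) and Acsm3 (lower). Kap was the most abundant transcript in all 36 libraries and did not pass the test of a difference in level, nor did Cyp7b1 or Acsm2. Thus 4 of 7 genes passed an adjusted p of 0.05 in level, where 16.6% of all 11144 genes tested did (limma with Benjamini-Hochberg adjustment over all genes). Higher under the high-fat diet were 2 of 7, against 5.25% of all genes, and lower were 2 of 7, against 11.4% of all genes. Prlr passed the minimum mean of 1 FPKM only through its HFD values, and the genes were chosen with earlier results of these data known. These counts therefore say nothing of the 7 genes as a set. Of all genes called, 68.4% were lower under the high-fat diet, but 49.97% after median ratio rescaling, 49.9% after upper quartile rescaling and 17.8% relative to early proximal tubule markers. In every sentence that gives a difference, it is HFD minus NC on the scale of log2(FPKM + 0.5), which understates changes of low genes. FPKM counts fragments per length of transcript and per size of library, so levels of different genes are compared per length.

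On GRCm38, Prlr lies on chromosome 15 from 10177238 to 10349180 (plus strand), and RefSeq gives it 3 starts. The 250 bases before the first and the second start are shown because Prlr had the largest difference of the 7 genes and the measured value sums over its starts. Capitals mark matches to TTCNNNGAA, a motif of STAT factors, and to TGTTCT, a motif shared by the androgen and glucocorticoid receptors. Each was searched on both strands together with the E-box CACGTG. The sequences are RefSeq's on GRCm38.p6, plus strand, 5′ to 3′.

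Prlr first start, chr15:10176988-10177237: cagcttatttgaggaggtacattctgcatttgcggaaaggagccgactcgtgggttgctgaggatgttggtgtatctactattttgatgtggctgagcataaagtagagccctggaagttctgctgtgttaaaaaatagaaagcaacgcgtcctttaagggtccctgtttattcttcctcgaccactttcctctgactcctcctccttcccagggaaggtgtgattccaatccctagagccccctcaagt

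Prlr second start, chr15:10223656-10223905: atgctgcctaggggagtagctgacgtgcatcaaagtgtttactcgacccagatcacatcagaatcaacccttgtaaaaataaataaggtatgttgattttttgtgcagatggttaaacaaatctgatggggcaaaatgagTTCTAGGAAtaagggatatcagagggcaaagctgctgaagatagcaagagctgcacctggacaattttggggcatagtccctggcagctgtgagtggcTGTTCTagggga

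The STAT match began 110 bases and the TGTTCT match 12 bases before the second start, without overlap. The windows before the first and the third start held none of the 3 motifs, and neither did those of Gusb, Acsm3 and the first start of Acsm2. The windows of Kap and of the second start of Acsm2 overlap annotated exons and are not counted here. Among 32851 promoter windows of the same length outside chromosome 18, 16.1% held TGTTCT, 7.02% held TTCNNNGAA and 6.02% held CACGTG. A match describes letters only.

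The libraries differed in ways that touch these genes. Relative depth ranged from 0.354 to 1.52, and the shallowest library was HFD ZT4 replicate 5. Adrenal transcripts were present in 4 NC libraries (ZT0 replicate 5, ZT4 replicates 2 and 3, ZT16 replicate 4), where Cyp21a1, an adrenal steroid hydroxylase, reached 20.2 to 1346 FPKM against at most 0.255 FPKM elsewhere. All 7 adipocyte markers were lower under the high-fat diet, with summed levels of 9.82 to 432 FPKM in HFD libraries and 107 to 1847 FPKM in NC libraries, and no marker was at 0 throughout. The part of these tissues in the results was not tested. Level and rhythm tests of the genes described were also run without the adrenal libraries and with an adipocyte score as covariate. Relations between these genes were not computed with that covariate. Differences of single other genes are given from all libraries and without it. Early proximal tubule markers summed to 2714 to 3356 FPKM in HFD libraries and 2570 to 3674 FPKM in NC libraries, with 3 of 8 lower, and straight segment markers to 347 to 655 FPKM in HFD libraries and 302 to 629 FPKM in NC libraries, with 2 of 6 higher and 1 lower. In whole kidney, fewer cells of a type and less RNA per cell cannot be told apart.

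**Figure D1:**
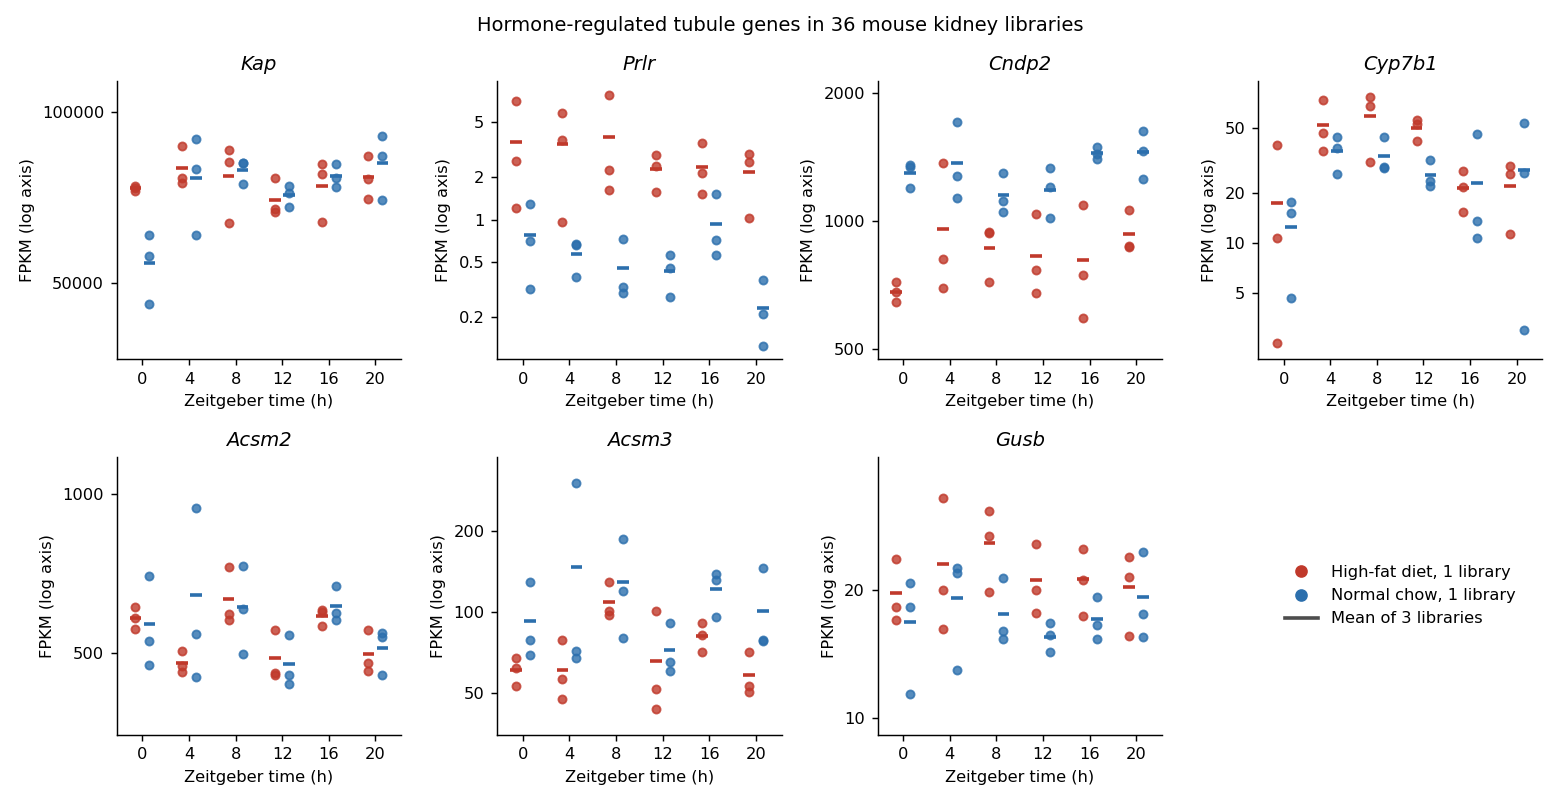
FPKM (log axis) of the 7 genes against Zeitgeber time in hours; each point is 1 library, red for the high-fat diet and blue for normal chow, and bars are means of 3 libraries. Prlr points of the high-fat diet lie above those of normal chow at 4 of 6 times and Cndp2 points below them at 4 of 6 times.

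Prlr, the receptor among these genes, was at a low level under both diets and was the gene with the largest difference. Its lowest, median and highest values were 0.964, 2.50 and 7.80 FPKM in HFD kidneys, against 0.126, 0.504 and 1.53 FPKM in NC kidneys. Of 18 HFD kidneys 14 lay above every NC kidney, and all 18 above the NC median. The mean was 2.97 ± 1.98 FPKM in HFD kidneys and 0.565 ± 0.360 FPKM in NC kidneys (SD, n = 18 each), a ratio of means of 5.26. On the log2 scale the difference was 1.59 ± 0.20 (SE), or 3.00-fold, with an adjusted p of 1.85e-06 by limma. The NC mean lies under the minimum of 1 FPKM, so Prlr entered the test through its HFD values. Without that minimum the difference was 1.59 with an adjusted p of 7.17e-06.

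Every HFD value of Prlr exceeded every NC value at ZT4, 8, 12 and 20, as at 4 or more times for 1.4% of genes tested. At ZT8 the HFD kidneys had 7.80, 2.26 and 1.63 FPKM, against 0.723, 0.331 and 0.298 FPKM in NC kidneys. At ZT20 they had 2.95, 2.58 and 1.03 FPKM, against 0.369, 0.210 and 0.126 FPKM in NC kidneys. The diets overlapped at ZT0, with 6.98, 2.63 and 1.199 FPKM in HFD kidneys and 1.29, 0.704 and 0.320 FPKM in NC kidneys, and at ZT16, with 3.52, 2.13 and 1.52 FPKM in HFD kidneys and 1.53, 0.716 and 0.555 FPKM in NC kidneys. The difference was positive at each of the 6 times, from 1.01 ± 0.49 (SE) at ZT16 to 1.97 ± 0.49 at ZT8. None of them passed the adjusted threshold at a single time by limma (adjusted p = 0.0825 to 0.681). At ZT4 the difference passed after GC removal (1.73, adjusted p = 0.0462) and without NC ZT4 replicate 2 (1.74, adjusted p = 0.0382), and without HFD ZT4 replicate 5 it passed at ZT4 (2.27, adjusted p = 0.0242) and at ZT8 (1.97, adjusted p = 0.0446). The 3 highest values, at ZT0, ZT4 and ZT8, came from single HFD kidneys, so that the spread between mice of 1 group was wide.

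The Prlr difference was 1.55 without the adrenal libraries and 1.05 with the adipocyte covariate (limma, adjusted p = 5.46e-05 and 0.0168). It shares 203 exon bases with Gm21973 on the same strand, and fragments of that stretch cannot be told apart.

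**Figure D2:**
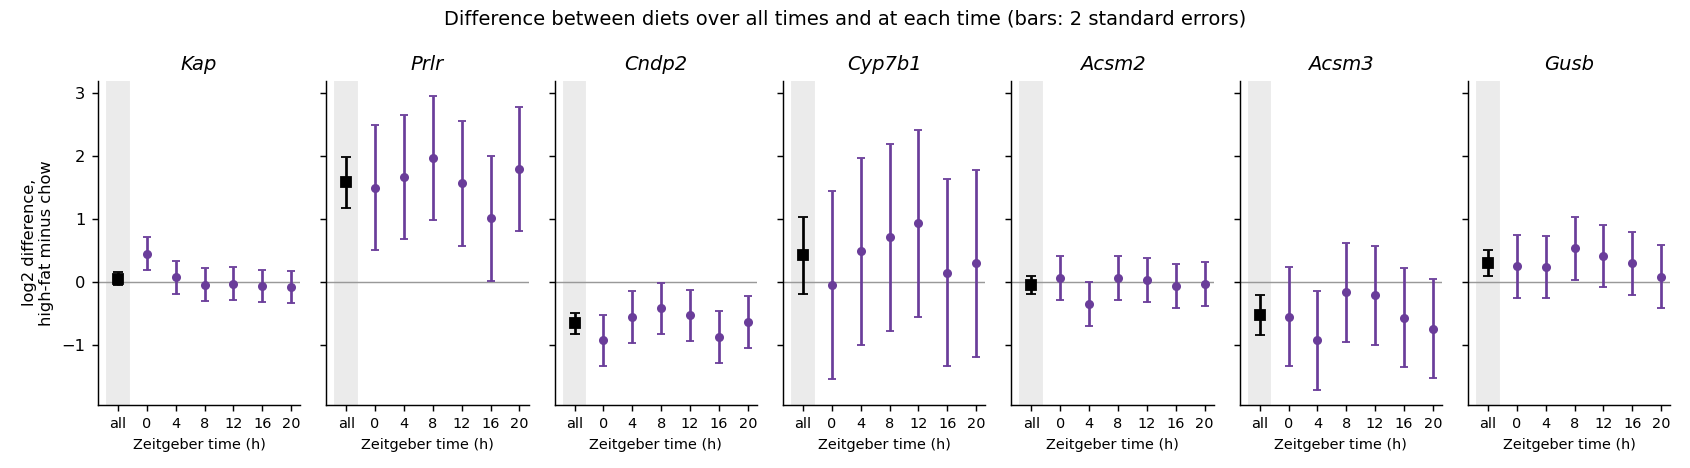
Difference HFD minus NC in log2(FPKM + 0.5) for each gene over all times (black square) and at each Zeitgeber time in hours (purple); bars are 2 standard errors. Prlr is above 0 and Cndp2 below 0 at all 6 times.

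Cndp2, the dipeptidase, was an abundant transcript and fell under the high-fat diet. Its lowest, median and highest values were 591, 789 and 1369 FPKM in HFD kidneys, against 1016, 1314 and 1703 FPKM in NC kidneys. The groups overlapped, but 17 of 18 HFD kidneys lay below the NC median. The mean was 845 ± 198 FPKM in HFD kidneys and 1314 ± 187 FPKM in NC kidneys (SD, n = 18 each). The difference was -0.66 ± 0.08 (SE), with an adjusted p of 1.84e-06 by limma. It was -0.51 with the adipocyte covariate and -0.64 without the adrenal libraries (limma, adjusted p = 0.00911 and 2.80e-05).

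The Cndp2 values of the 2 diets did not overlap at 4 times, with the HFD values lower, as for 2.41% of genes tested at 4 or more times. At ZT0 the HFD kidneys had 643, 679 and 716 FPKM, against 1192, 1336 and 1353 FPKM in NC kidneys, which is a difference of -0.93 ± 0.20 (SE; limma adjusted p = 0.0129). At ZT16 they had 591, 743 and 1089 FPKM, against 1393, 1433 and 1492 FPKM in NC kidneys, a difference of -0.88 ± 0.20 (SE; limma adjusted p = 0.0426). These were 2 calls among 42 pairs of gene and time, where 1.59% of all genes passed at ZT0, 1.61% at ZT4, 0.332% at ZT8, 0.368% at ZT12, 0.556% at ZT16 and 0.26% at ZT20. The ZT0 call was lost without HFD ZT0 replicate 1 or 3 (adjusted p = 0.0561 and 0.0597). The ZT16 call was lost without any one of the ZT16 libraries other than HFD ZT16 replicate 4, with -0.90 to -0.68 and adjusted p of 0.118 to 0.330, and without any one of 9 libraries of other times. Cndp2 lies on chromosome 18 from 84667465 to 84685702 (minus strand).

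Gusb, the lysosomal glucuronidase, was modestly higher under the high-fat diet. Its lowest, median and highest values were 15.6, 20.6 and 32.9 FPKM in HFD kidneys, against 11.4, 16.6 and 24.5 FPKM in NC kidneys. Ranges overlapped widely, although 16 of 18 HFD kidneys lay above the NC median. The mean was 21.8 ± 4.93 FPKM in HFD kidneys and 17.5 ± 3.53 FPKM in NC kidneys (SD, n = 18 each), with a difference of 0.30 ± 0.10 (SE; limma adjusted p = 0.0398). The call was lost when any one of 18 libraries was left out and with the adipocyte covariate (0.41, adjusted p = 0.126). Gusb lies on chromosome 5 from 129989011 to 130003049 (minus strand).

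Acsm3 and Acsm2 encode enzymes of the same family and lie close together on chromosome 7, Acsm2 from 119554340 to 119600690 and Acsm3 from 119760923 to 119787513, both on the plus strand. Acsm3 was lower under the high-fat diet, with a lowest, median and highest value of 43.5, 69.1 and 129 FPKM in HFD kidneys, against 59.9, 85.3 and 301 FPKM in NC kidneys. The ranges overlapped over all times, while at 3 single times every HFD value was below every NC value, as for 5.6% of genes at 3 or more times. The mean was 72.4 ± 23.5 FPKM in HFD kidneys and 110 ± 59.2 FPKM in NC kidneys (SD, n = 18 each), with a difference of -0.53 ± 0.16 (SE; limma adjusted p = 0.0236). Without single libraries it ranged from -0.59 to -0.41 (limma, adjusted p = 0.00872 to 0.0433), with -0.41 without NC ZT4 replicate 4, the library at 301 FPKM. It was -0.76 without the adrenal libraries (limma, adjusted p = 0.000390), a setting that leaves that library alone in its group and has a ZT4 difference of -2.33, against -0.93 with all libraries. It was -0.42 and not past the threshold with the adipocyte covariate (adjusted p = 0.418) and -0.43 relative to early proximal tubule markers (adjusted p = 0.0505). Acsm3 shares 1962 exon bases with Eri2 on the opposite strand, and the kit does not keep the strand. Eri2 averaged 29.0 ± 7.96 FPKM in HFD kidneys and 35.0 ± 9.03 FPKM in NC kidneys (SD, n = 18 each; -0.28 ± 0.10 SE, limma adjusted p = 0.0470).

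Acsm2 was several times more abundant than Acsm3 and did not pass. It ranged from 456 to 729 FPKM with a median of 555 FPKM in HFD kidneys, and from 438 to 941 FPKM with a median of 543 FPKM in NC kidneys. The mean was 546 ± 72.9 FPKM in HFD kidneys and 572 ± 126 FPKM in NC kidneys (SD, n = 18 each), with a difference of -0.05 ± 0.07 (SE; limma adjusted p = 0.684). Without the adrenal libraries the difference was -0.18 and passed (limma, adjusted p = 0.0316). That setting leaves NC ZT4 replicate 4 alone in its group, the library with the highest Acsm2 and Acsm3 values of all 36, and without that library the difference was 0.000462.

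Kap made up 12.1% ± 0.894 of the summed FPKM in HFD kidneys and 11.6% ± 1.71 in NC kidneys (SD, n = 18 each). Its lowest, median and highest values were 63806, 75682 and 87138 FPKM in HFD kidneys, against 45808, 74423 and 90830 FPKM in NC kidneys. The HFD range lay within the NC range. The difference was 0.05 ± 0.05 (SE; limma adjusted p = 0.569), and 2 standard errors on each side span -0.06 to 0.16. At ZT0 the 3 HFD kidneys, at 72727, 73496 and 73961 FPKM, all exceeded the 3 NC kidneys, at 45808, 55784 and 60721 FPKM, as 6.76% of genes did. That difference, 0.45 ± 0.13 (SE), did not pass by limma (adjusted p = 0.0809). It passed after upper quartile rescaling (0.50, adjusted p = 0.0307) and without NC ZT0 replicate 1, NC ZT4 replicate 3 or NC ZT4 replicate 4 (0.45 to 0.54, adjusted p = 0.0425 to 0.0497). Kap lies on chromosome 6 from 133849851 to 133853762 (minus strand).

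Cyp7b1 varied more between mice than between diets. Its lowest, median and highest values were 2.51, 33.4 and 76.3 FPKM in HFD kidneys, against 3.00, 26.4 and 53.3 FPKM in NC kidneys. Both diets held kidneys near the bottom of the range, at ZT0 under the high-fat diet and at ZT20 under normal chow. The mean was 36.9 ± 21.7 FPKM in HFD kidneys and 26.5 ± 14.4 FPKM in NC kidneys (SD, n = 18 each), with a difference of 0.42 ± 0.30 (SE; limma adjusted p = 0.376). Within groups its residual SD was 0.99 on the log2 scale, larger than in 99.3% of the 6900 genes with a mean of at least 5 FPKM, whose median was 0.163. At ZT20 the 3 NC kidneys alone had 3.00, 26.5 and 53.3 FPKM. Cyp7b1 lies on chromosome 3 from 18071950 to 18243338 (minus strand).

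The title asks about daily cycles, so each gene was tested for a 24 h rhythm under each diet. None of the 7 passed under the high-fat diet or under normal chow, where 7.3% and 7.77% of all genes did (F test in limma on cosine and sine terms). Cyp7b1 came nearest: its fitted peak-to-trough difference under the high-fat diet was 2.12 ± 0.55 (SE) with a peak at 9.01 ± 0.992 h (unadjusted p = 0.00413, adjusted p = 0.0543 by limma). Under normal chow it was 1.35 ± 0.61 with a peak at 8.52 ± 1.71 h (limma adjusted p = 0.339). Group means under the high-fat diet were 17.5, 51.8, 58.4, 49.8, 21.5 and 22.2 FPKM in the order of the 6 times, against 12.5, 36.01, 33.8, 26.0, 23.3 and 27.6 FPKM under normal chow. Thus the means of ZT4, 8 and 12 were the highest under the high-fat diet, and ZT0 was the lowest under both diets.

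For the other 6 genes the adjusted p of a rhythm was 0.266 or more under either diet by limma, and of the 14 tests, that of Cyp7b1 under the high-fat diet alone had an unadjusted p under 0.05. When time was fitted as 6 separate levels, 3 genes passed under the high-fat diet (Cyp7b1, Acsm2 and Acsm3), where 28.4% of all genes did, and 0 under normal chow, where 3.37% did. No rhythm differed between diets for the 7 genes (limma, adjusted p = 1.00 for each; 0 at an unadjusted p under 0.05), where 0.0269% of all genes did. The diets' differences were not shown to vary with time either (F test of diet by time in limma, chosen after the data were seen, adjusted p = 0.999 for each of the 7 genes).

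Mice of 1 group that were high in one of these genes tended to be high or low in others. Deviations from the mean of the same diet and time were compared for 21 pairs over 36 libraries, and 7 pairs passed (Pearson, permutation within groups, two-sided, adjusted over the 21 pairs). The share that would pass among pairs of other genes was not computed, so the count does not set these genes apart from others. Acsm2 and Acsm3 deviated together with r = 0.89 (Spearman's rho = 0.83, permutation p = 2.00e-05 and adjusted p = 0.00021 for both measures), and within diets r was 0.85 in HFD and 0.90 in NC kidneys. Without the 2 libraries farthest from the median of Acsm2, r was 0.83. In each pair below, too, the 2 farthest libraries were those of the gene named first. Libraries far out only in the second gene could stay in. NC ZT4 replicate 4 lay farthest out in both genes.

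Kap, Gusb and Cndp2 also deviated together, although only Gusb and Cndp2 differed between diets, and in opposite directions. For Kap and Gusb r was 0.79 (rho = 0.76, permutation p = 0.00011, adjusted p = 0.00077 for both measures), with 0.76 in HFD and 0.83 in NC kidneys, and 0.74 without the 2 farthest libraries. For Cndp2 and Gusb r was 0.78 (rho = 0.78, permutation p = 1.00e-05, the smallest that 100000 permutations can give, adjusted p = 0.00021 for both measures), with 0.87 in HFD and 0.67 in NC kidneys, and 0.74 without the 2 farthest libraries. For Kap and Cndp2 r was 0.65 (rho = 0.66, permutation p = 0.00035 and 0.00046, adjusted p = 0.00184 and 0.00242), with 0.68 in HFD and 0.70 in NC kidneys, and 0.61 without the 2 farthest libraries. For Acsm3 and Gusb r was 0.54 (rho = 0.55, permutation p = 0.0106 and 0.00640, adjusted p = 0.0317 and 0.0224), with 0.60 in HFD and 0.56 in NC kidneys, and 0.52 without the 2 farthest libraries.

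With Cyp7b1, Prlr had r = 0.45, not past the threshold (permutation, adjusted p = 0.0692), with 0.81 in HFD and -0.09 in NC kidneys. After GC removal that r was 0.50 and passed (permutation, adjusted p = 0.0199). Among the pairs that passed, Prlr deviated against Cndp2 and Gusb. For Prlr and Cndp2 r was -0.53 (rho = -0.53, permutation p = 0.00751 and 0.00576, adjusted p = 0.0306 and 0.0224), with -0.63 in HFD and -0.15 in NC kidneys. For Prlr and Gusb r was -0.55 (rho = -0.51, permutation p = 0.00873 and 0.0114, adjusted p = 0.0306 and 0.0343), with -0.68 in HFD and -0.35 in NC kidneys. Without the 2 farthest libraries r was -0.39 and -0.43 (permutation p = 0.0633 and 0.0512), and neither passed. With the same removal r was -0.44 and -0.49 after median ratio rescaling (permutation p = 0.0476 and 0.0301), -0.46 and -0.56 without the adrenal libraries (permutation p = 0.0309 and 0.0273), and -0.46 and -0.49 after GC removal (permutation p = 0.0634 and 0.0334). The shallowest library, HFD ZT4 replicate 5, had the lowest Prlr and the highest Cndp2, Gusb and Kap values of all HFD kidneys.

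**Figure D3:**
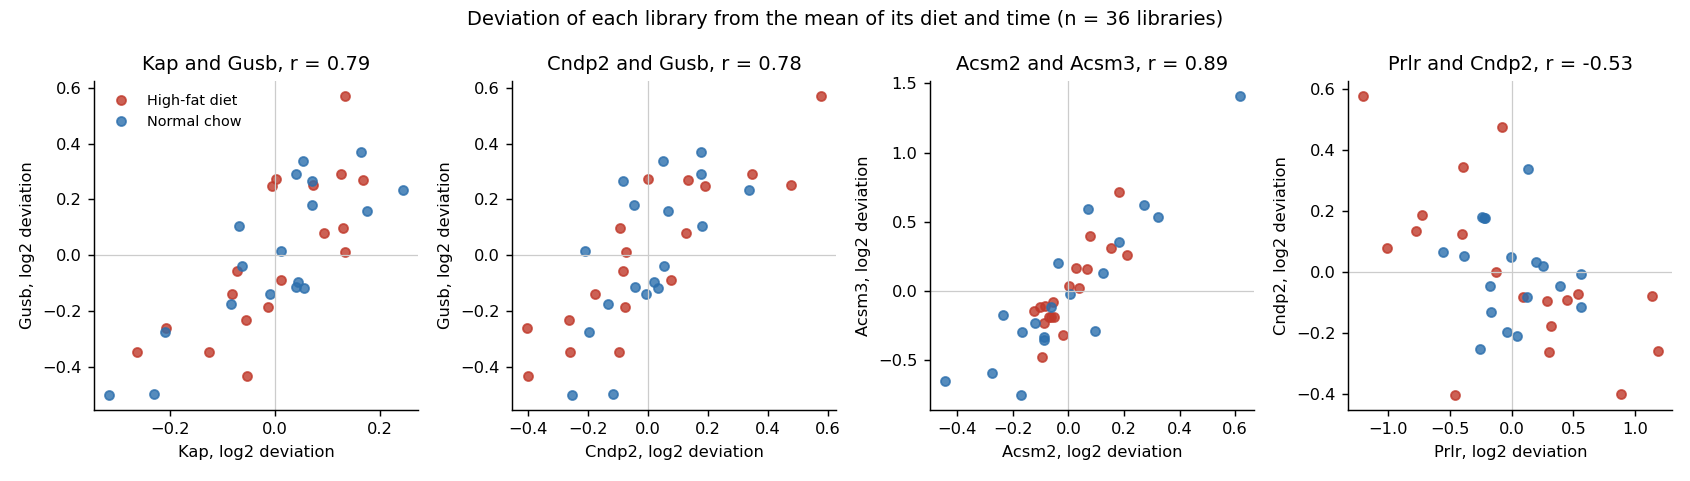
Deviation of each library from the mean of its diet and time, in log2(FPKM + 0.5), for 4 pairs of genes; each point is 1 of 36 libraries, red for the high-fat diet and blue for normal chow. Points rise together for Kap and Gusb, Cndp2 and Gusb, and Acsm2 and Acsm3 (r = 0.79, 0.78 and 0.89), and run against each other for Prlr and Cndp2 (r = -0.53).

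Genes of the same pathways were read from lists, in which 1 gene may stand more than once. Over all 11144 genes tested the median difference was -0.03, and 5.25% were called higher and 11.4% lower. These shares stand beside the counts of every list below. Of 15 androgen-induced kidney genes 4 rose, 2 fell and 9 did not pass, with a median of 0.15. Besides Gusb, Cyp4b1, a cytochrome P450, rose, with 2835 ± 245 FPKM in HFD kidneys and 2253 ± 276 FPKM in NC kidneys (SD, n = 18 each; 0.34 ± 0.05 SE). Nudt19, a mitochondrial and peroxisomal hydrolase of CoA compounds, rose by 0.31 ± 0.08 and Adh1, an alcohol dehydrogenase, by 0.27 ± 0.08. Timd2, a receptor of ferritin, fell along with Acsm3 (-0.24 ± 0.04). Relative to early proximal tubule markers 6 rose and 0 fell, where 12.7% of all genes were called higher and 2.76% lower and the median over all genes was 0.06. With the adipocyte covariate 2 rose and 1 fell, where 1.86% of all genes were called higher and 3.08% lower.

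Of 4 kidney genes higher in females, 3 had a mean of at least 1 FPKM, and all 3 rose. Slc7a12, an amino acid transporter of the straight proximal tubule, averaged 2.11 ± 2.32 FPKM in HFD kidneys and 0.494 ± 0.322 FPKM in NC kidneys (SD, n = 18 each; 1.11 ± 0.25 SE, limma adjusted p = 0.00219). Cyp4a14, a fatty acid hydroxylase, averaged 13.1 ± 11.7 FPKM in HFD kidneys and 5.12 ± 3.29 FPKM in NC kidneys (SD, n = 18 each; 1.23 ± 0.28 SE, limma adjusted p = 0.00254), with near-identical relatives that could share its fragments. The fourth, Abcc3, an export pump, had 0.26 ± 0.08 FPKM in HFD kidneys and 0.29 ± 0.12 FPKM in NC kidneys. Like Prlr, Slc7a12 was under 1 FPKM in NC kidneys and entered through its HFD values, so the count says nothing of the list. With the adipocyte covariate 1 of the 3 rose, and the median was 0.60 in place of 1.23.

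Of 10 prolactin and growth hormone signalling genes tested, 2 rose and 2 fell, with a median of 0.04. Besides Prlr, Ghr, the growth hormone receptor, rose by 0.15 ± 0.05. Socs2, a feedback inhibitor of this signalling, fell, with 2.56 ± 1.10 FPKM in HFD kidneys and 4.96 ± 1.97 FPKM in NC kidneys (SD, n = 18 each; -0.82 ± 0.18 SE, limma adjusted p = 0.00161). Igf1, a growth factor induced by growth hormone, fell as well, with 1.11 ± 0.32 FPKM in HFD kidneys and 1.82 ± 0.46 FPKM in NC kidneys (-0.53 ± 0.09 SE). The kinase Jak2 and the factors Stat5a and Stat5b did not pass. Esr1, an estrogen receptor, rose by 0.42 ± 0.08.

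Of 4 medium-chain acyl-CoA synthetases tested, 3 fell, Acsm3 among them, and 0 rose, where 11.4% of all genes fell and 5.25% rose. Acsm1 fell by 0.21 ± 0.05 and Acsm5 by 0.21 ± 0.07 beside Acsm3. Relative to early proximal tubule markers 0 passed, where 2.76% of all genes were called lower and 12.7% higher. Of 5 genes of carnosine and dipeptide handling tested, 2 rose and 2 fell. Cndp1, a carnosinase gene and the nearest relative of Cndp2, moved against it (0.64 ± 0.08 SE). It averaged 27.7 ± 4.74 FPKM in HFD kidneys and 18.05 ± 4.85 FPKM in NC kidneys (SD, n = 18 each). Slc15a2, a peptide transporter, rose by 0.27 ± 0.06, and Dpep1, a dipeptidase of the brush border, fell by 0.43 ± 0.05. Of 9 oxysterol and steroid conversion genes tested, Hsd3b7, an enzyme of bile acid synthesis, fell by 0.25 ± 0.05, and the remaining 8 did not pass. Of 19 lysosomal hydrolases tested, 2 rose, with Gusb among them, 1 fell and 16 did not pass. Ctsb, a protease, fell by 0.10 ± 0.03.

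**Figure D4:**
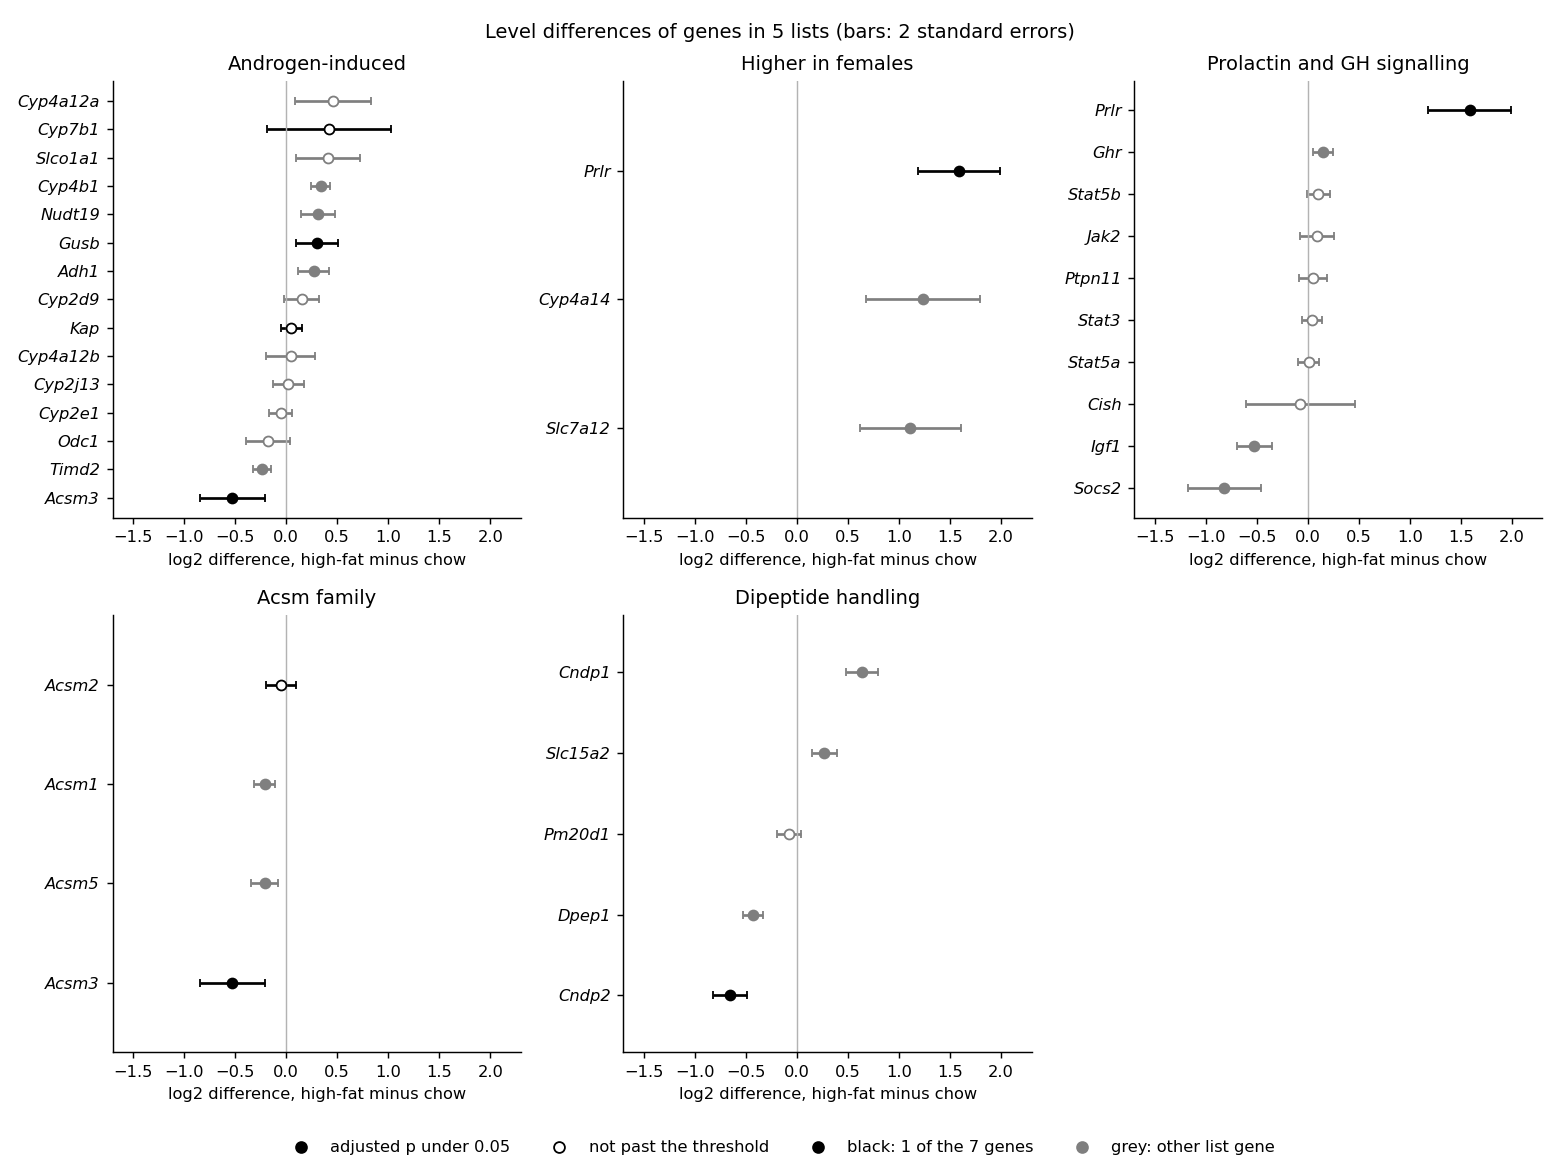
Difference HFD minus NC in log2(FPKM + 0.5) for the tested genes of 5 lists; bars are 2 standard errors, filled symbols have an adjusted p under 0.05, and black marks the 7 genes described here. Prlr, Slc7a12 and Cyp4a14 have the largest positive differences shown, and Cndp1 and Cndp2 lie on opposite sides of 0.

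The genes whose 12 group means were most like those of a called gene were sought among 6894 genes, by the mean absolute log2 difference between centred group means. For Prlr they were Ugt2b37 (0.24), a glucuronosyltransferase, Ctxn3 (0.27) and Rarres2 (0.28), which encodes chemerin, where the median gene was at 0.81. For Cndp2 they were Car4 (0.11), a membrane-bound carbonic anhydrase, Fkbp11 (0.11), a peptidyl-prolyl isomerase, and Apom (0.11), an apolipoprotein, where the median gene was at 0.32. Apom averaged 146 ± 20.6 FPKM in HFD kidneys and 225 ± 26.3 FPKM in NC kidneys, and Car4 162 ± 23.5 FPKM in HFD kidneys and 229 ± 32.3 FPKM in NC kidneys (SD, n = 18 each). For Acsm3 they were Gclc (0.15), a subunit of glutathione synthesis, Uxs1 (0.19) and Akr1c13 (0.20), with a median gene at 0.36. For Gusb they were Eci3, BC026585 and Spg7, each at 0.06 or 0.07, with a median gene at 0.19.

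Cyp7b1 was called in neither level nor rhythm, and its likest genes are given after their values were seen. They were Methig1 (0.13), Serpina1f (0.19) and Serpina1d (0.21), both Serpina1 genes being members of a family of serine protease inhibitors with near-identical copies, so that their values are uncertain. Their residual SDs within groups were 1.11, 1.00 and 0.96 on the log2 scale, close to that of Cyp7b1. Methig1 averaged 17.3 ± 9.72 FPKM in HFD kidneys and 13.7 ± 8.19 FPKM in NC kidneys, Serpina1f 30.4 ± 15.9 FPKM in HFD kidneys and 19.6 ± 10.6 FPKM in NC kidneys, and Serpina1d 59.6 ± 28.8 FPKM in HFD kidneys and 53.6 ± 29.5 FPKM in NC kidneys (SD, n = 18 each).

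**Figure D5:**
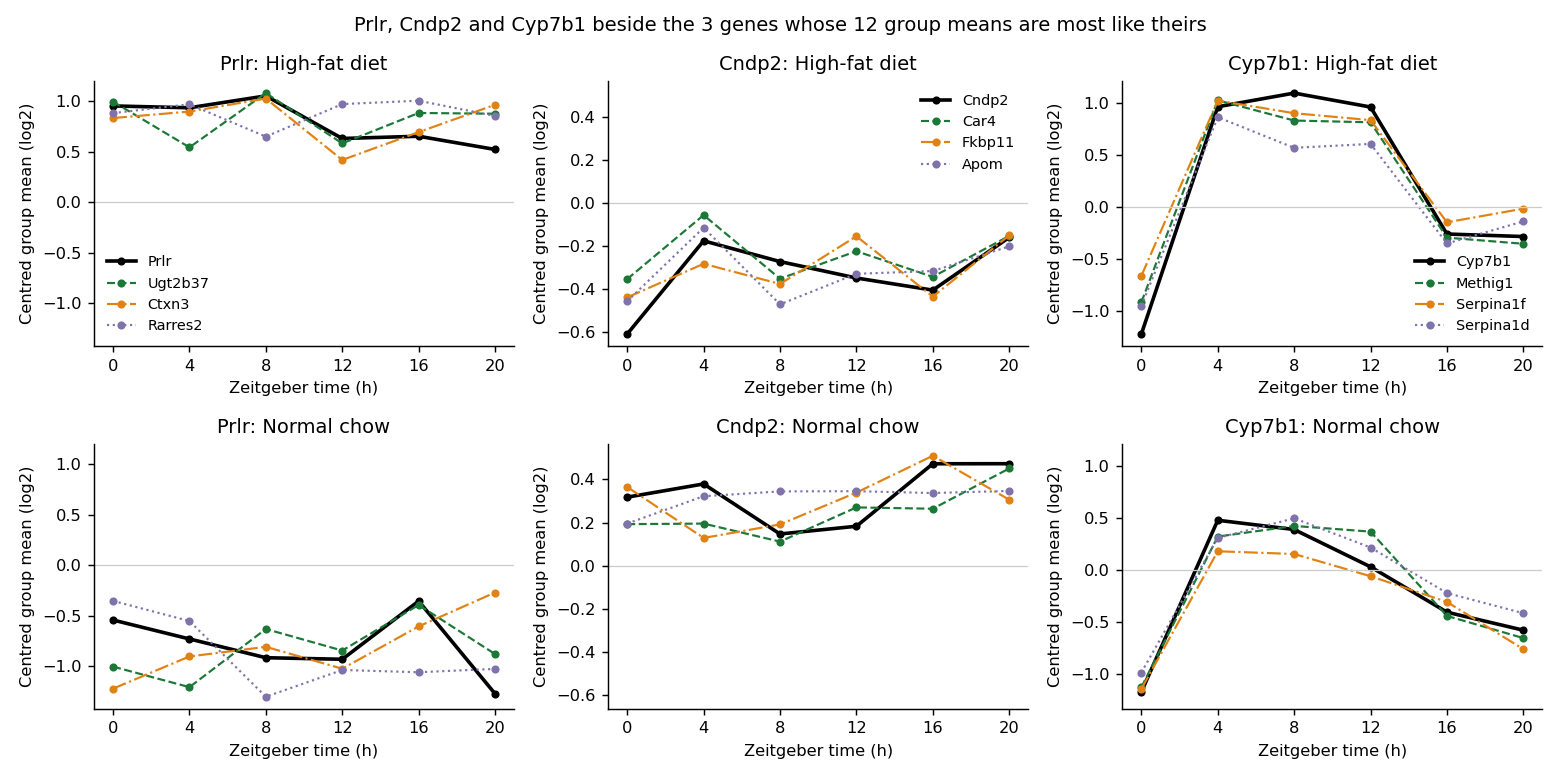
Group means of log2(FPKM + 0.5), centred on each gene's own mean, against Zeitgeber time in hours, for Prlr, Cndp2 and Cyp7b1 (black) and the 3 genes most like each (colours), under the high-fat diet (top) and normal chow (bottom). The Prlr set lies above 0 under the high-fat diet and below 0 under normal chow, the Cndp2 set the other way round, and the Cyp7b1 set is highest at ZT4 to 12 under the high-fat diet.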

How the data were processed

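Kidney RNA of 36 mice was measured as 2 tables of 24883 rows, 1 table for each diet. The submitters' processing notes name mm10 and the tools CASAVA 1.8.2, Bowtie and Cuffnorm, and the deposited values are FPKM as the authors' Cuffnorm step gave them. Whether 1 run made both tables is not given in the sources used here. Median log2 ratios averaged -0.01 in HFD and 0.02 in NC libraries over 9689 genes. TRIzol extraction and the TruSeq RNA v2 kit were used, per the labels' protocols. Rows of 280 repeated symbols (817 rows) were left out. No 2 libraries held identical values.

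Genes with a mean of at least 1 FPKM (11144) were tested with limma 3.58.1 in R 4.3.3, with a mean-variance trend, on log2(FPKM + 0.5) and a Benjamini-Hochberg threshold of 0.05. A count model was not used. The level difference was the mean of the 6 HFD group means minus that of the 6 NC group means. The fits were tested on simulated data. Relations used Python 3.11.15 and scipy 1.17.1, with matplotlib 3.10.9 for the figures. Absolute depth is unknown. Relative depth, from steps between low values of 2697 genes (86.2% within 0.05 of a whole multiple), was 0.999 ± 0.307 in HFD and 1.10 ± 0.278 in NC libraries (SD, n = 18 each). This estimator was chosen after the data were seen. Replicates are numbered mice of a group, and the labels do not name litters or batches.

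The genes, the lists and the tests were chosen with earlier results of these data known. Named genes were the 7, the 3 likest genes of each called one and up to 4 called genes of each list, of which some are not reported here. Removing the GC trend, 2 of the alternatives for the relations, the diet by time test and the p without the 2 farthest libraries were added after the data were seen. GENCODE M21 on GRCm38 gave the coordinates, counted from 1. RefSeq windows of GRCm38.p6, with those of chromosome 18 left out, matched 5 of the 7 genes. Cndp2 lies on chromosome 18, and no window was matched for Cyp7b1.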

Additional observations from a re-analysis of the deposited data

How the results depend on the processing

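The differences of Prlr and Cndp2 kept their direction and their call in every alternative run in which the gene was tested. Prlr ranged from 1.05 to 2.14 (1.49 to 1.69 without single libraries) and was not tested at a minimum of 5 FPKM. Cndp2 ranged from -0.66 to -0.51 (-0.71 to -0.62 without single libraries). Acsm3 lost its call with the adipocyte covariate (-0.42) and relative to early proximal tubule markers (-0.43), and Gusb with the covariate (0.41) and with no filter on low values (0.30). Acsm2 passed without the adrenal libraries (-0.18) and turned positive relative to early proximal tubule markers (0.045). Cyp7b1 turned negative with the covariate (-0.19). Without single libraries Gusb ranged from 0.25 to 0.34 (adjusted p 0.0200 to 0.0692), losing its call for 9 HFD and 9 NC libraries, and Acsm2 from -0.088 to 0.000462. The cause was not tested for any of these.

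The number of the 7 genes called in level was 2 with the adipocyte covariate. The number called rhythmic under the high-fat diet was 1 with a pseudocount of 1 or a minimum of 5 FPKM, 3 with time as a factor, and 0 to 1 without single libraries (Cyp7b1, without HFD ZT0 replicate 1 or 4, ZT8 replicate 2 or ZT20 replicate 4). Calls at single times numbered 1 with no filter, median ratio rescaling, the covariate or the replicate block (Cndp2 at ZT0 in each). They numbered 0 relative to early proximal tubule markers, and 3 with upper quartile rescaling (Kap at ZT0 added) or after GC removal (Prlr at ZT4 added). Without single libraries they numbered 0 to 5. The 5 came without HFD ZT4 replicate 5 and the 0 without HFD ZT0 replicate 1 or 3. Without the adrenal libraries NC ZT4 replicate 4 is alone in its group. The ZT4 differences were then -0.97 for Acsm2 and -2.33 for Acsm3. Related pairs numbered 12 after GC removal and 11 without the adrenal libraries, and the 7 pairs kept their calls there and after median ratio rescaling.

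Whether replicate numbers pair the samples is not known. The 12 same-number pairs of diets had r of -0.30 to 0.35, with 6 over 0.1 and a median of 0.069. For 42 different-number pairs the median was -0.011. With the replicate block Prlr was 1.55, Cndp2 -0.64, Acsm3 -0.56 and Gusb 0.31, and 4 genes were called. Over all genes, rhythmic genes with the block were 446 under the high-fat diet and rhythm differences 0 (1 with GC removal too).

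Over all genes, level calls numbered 550 with the covariate (main 1850). Calls at single times (525) became 5480 without the adrenal libraries, 867 after GC removal, 329 with the covariate, 228 relative to early proximal tubule markers and 361 to 2244 without single libraries. Rhythmic genes under the high-fat diet (813) became 3166 with time as a factor and 475 relative to those markers. Under normal chow (866) they became 375, 318, 515 without the adrenal libraries and 1335 after GC removal. Rhythm differences (3) became 5 after GC removal and 0 to 4 without single libraries. Depth limits the precision of low values.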

Other observations

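Some list genes, named here after their values were seen, were rhythmic under both diets. Acsm5, a relative of Acsm2 and Acsm3, had a peak-to-trough difference of 0.57 log2 and a peak at 8.52 h in HFD kidneys, and of 0.73 log2 and 8.77 h in NC kidneys (limma adjusted p = 0.00465 and 0.0173). Among the androgen-induced genes Nudt19 was rhythmic under both diets, with 0.54 log2 and a peak at 14.4 h in HFD kidneys and 1.09 log2 and 14.0 h in NC kidneys (limma adjusted p = 0.0435 and 0.0129). Among the lysosomal hydrolases Neu1, a sialidase, was rhythmic under both, with 0.50 log2 and a peak at 5.89 h in HFD kidneys and 0.63 log2 and 6.49 h in NC kidneys (limma adjusted p = 0.00370 and 0.00697).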
